A study of Mus musculus with 6 samples.

Results

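The insulin-like growth factor (IGF) system was followed in muscle satellite cells through 10 genes: the ligands Igf1 and Igf2, the receptors Igf1r and Igf2r, and the binding proteins Igfbp2 to Igfbp7 of the array's annotation. Every non-control probe that carried 1 of these gene names was taken, which gave 16 of the 55681 probes on the array. The cells had been sorted from 3 mice with a knockout of Rpt3 restricted to satellite cells and from 3 control mice, all of strain C57BL6. Rpt3, encoded by Psmc4, is an ATPase of the proteasome's 19S particle. Each mouse gave 1 single-colour (Cy3) Agilent array. The Cre driver, the time since deletion, the age of the mice and the control genotype are not given in the sources used here.

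IGF1 and IGF2 are secreted peptides that act through the receptor tyrosine kinase IGF1R, whose adaptors of the IRS family pass the signal to PI3K, AKT and mTOR. In skeletal muscle this route is known for promoting myoblast proliferation, differentiation and fibre growth. IGF2R carries no kinase and takes IGF2 to the lysosome, and the IGF binding proteins hold the ligands in the extracellular space and can either block or prolong their action.

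In these arrays 2 binding protein genes, Igfbp6 and Igfbp2, had lower signals in each knockout sample than in any control sample, at 61.2% and 70.3% of the control level. They were 2 of 9 tested genes, where 5.72% of all features were lower in this way and 10.6% did not overlap in either direction. Neither gene passed the threshold over all genes. By their brightest probes, Igf1, the receptors and the other tested binding proteins overlapped between the groups, while an upstream Igf1 probe did not. Igf2 was well above background on 3 of 6 arrays, of which 2 were knockout arrays. Among 15 other tested genes of the IGF axis, 3 had lower signals in each knockout sample than in any control, beside the same 5.72%. These were the mRNA-binding protein gene Igf2bp2 and the adaptor genes Irs1 and Gab1, and none passed the threshold.

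The sequences that bear on the readout are those of the array probes, because genes with several probes gave different answers. Igf1 has 5 probes of 60 bases on chromosome 10 of mouse build mm9, all on the plus strand. Of these, 4 belong to the transcript NM_010512. The other, A_55_P2085979, belongs to NM_184052, which is not among the 21 transcript accessions that the gene table of assembly GRCm38.p6 lists for Igf1. It lies 15105 bases upstream of A_55_P2085984, the brightest probe. The first 30 bases of each are given 5′ to 3′, in lower case throughout.
A_55_P2085979 (chr10:87378456-87378515): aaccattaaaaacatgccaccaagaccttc
A_55_P2085984 (chr10:87393561-87393620): cctaccaaataacaataataagtccaataa
A_55_P2031631 (chr10:87393581-87393640): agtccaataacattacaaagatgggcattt
A_55_P2031636 (chr10:87395924-87395983): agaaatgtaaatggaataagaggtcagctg
A_55_P2085974 (chr10:87399581-87399640): ctcctgattgtatttgaagtggttattcaa
A_55_P2085984 and A_55_P2031631 share 40 of their bases, so they are not independent measurements.

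Igfbp2 has 2 probes on the plus strand of chromosome 1, and only the first was well above background on any array. Its 60 bases end with the stop codon of the coding sequence, shown in capitals. The other probe begins 136 bases further on, and its first 30 bases are given.
A_55_P2056729 (chr1:72898677-72898736): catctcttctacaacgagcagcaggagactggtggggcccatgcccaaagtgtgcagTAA
A_66_P135391 (chr1:72898813-72898872): aggagttcccagttttgacacatgtattta
The probe of Igfbp6, the gene with the smallest p-value of the 10, is A_66_P139546 and lies on the plus strand of chromosome 15 from 101979852 to 101979911. The first 30 bases of this probe are shown with those of the single Igf2 probe, A_55_P2118173, on the minus strand of chromosome 7 from 149839661 to 149839720.
A_66_P139546: ctgtcacccttgggcctttacacagctagt
A_55_P2118173: atcaaattatgtggtaattctgcaatgtag
Beyond the stop codon named above, the tables used here do not say whether a probe lies in coding or untranslated sequence.

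The targeted gene was read first. Psmc4 had normalized log2 signals of 2.004, 2.02 and 1.52 in the knockout mice against 2.89, 2.58 and 2.84 in the controls, where 0 is the array's 75th percentile. Here and below, values follow the order of mouse 1, 2 and 3 in each group. All knockout values lay below all control values (log2 difference -0.92, limma, adjusted p = 0.406). Over the 6 arrays, 44.2% to 57.9% of probes were well above background, and no spot was saturated. Knockout 3 had the lowest share and stood apart on the first principal component, with 29.5% of the variance, at a score of 72.4 where the others lay between -24.4 and -4.52. Knockout 1 and 2 lay in slide row 1, and knockout 3 with the 3 controls in slide row 2, so blocking on slide row compares knockout 3 alone with the controls, and its p assumes that this array varies like the others. By limma, 0 of 19298 features passed an adjusted p of 0.05 (0%), and 1372 had an unadjusted p under 0.05 (7.11%). By an ordinary 2-sample test the counts were 0 and 1064.

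To enter the comparison, a probe had to be well above background on every array of 1 group or both. Of the 16 probes, 13 passed, for 9 of the 10 genes, and all 13 were well above background on all 6 arrays. The 3 that did not pass were the Igf2 probe, Igfbp2 probe A_66_P135391 and Igfbp3 probe A_55_P1992715. Each gene is reported by its brightest tested probe.

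**Figure D1:**
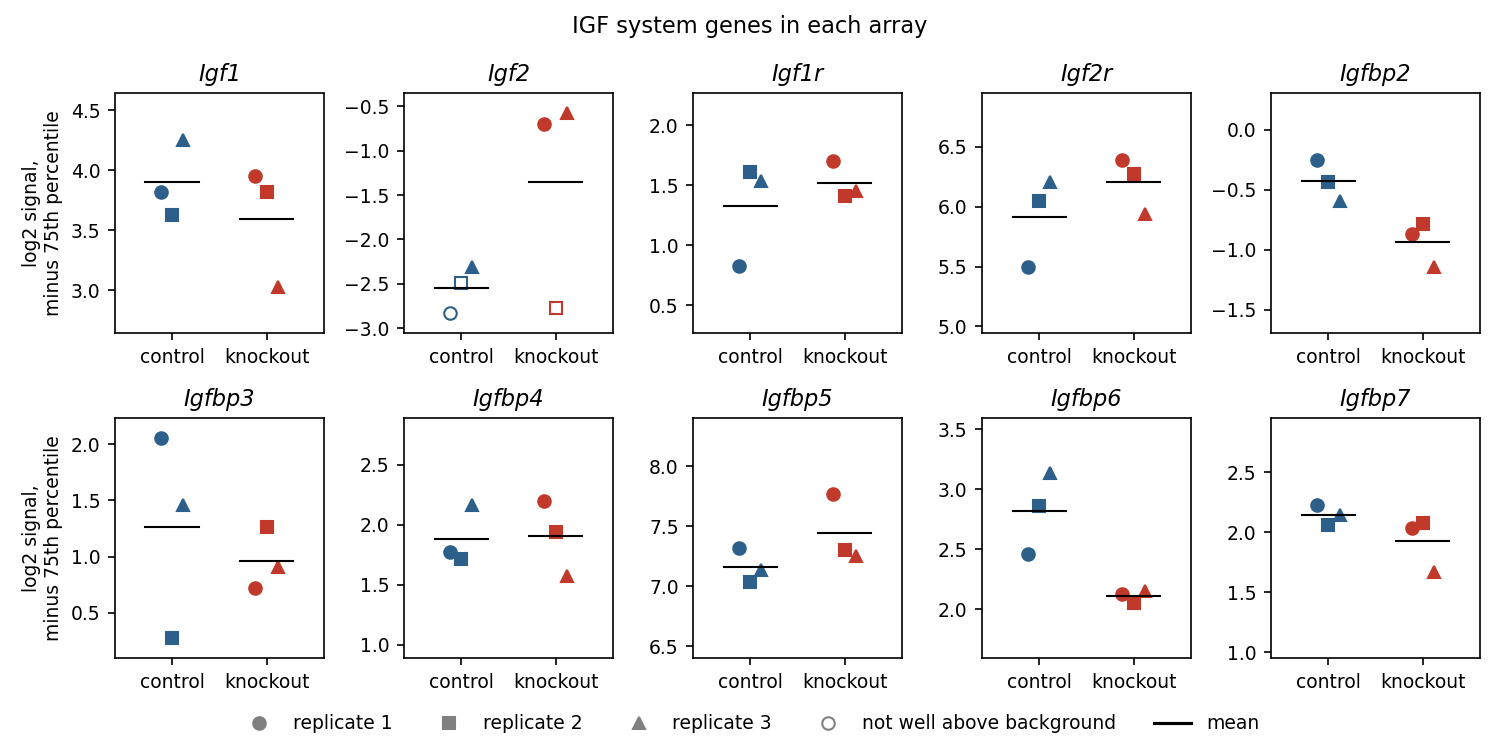
Normalized log2 signal (vertical axis, minus the array's 75th percentile) of the 10 genes in the 3 control (blue) and 3 knockout (red) arrays, with bars at the group means and open symbols where the probe was not well above background. Each panel has its own range, and the groups stand apart without overlap for Igfbp2 and Igfbp6 among the 9 tested genes.

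Igf1, the main circulating and local IGF ligand, was read by its brightest probe at 3.95, 3.82 and 3.02 in the knockout mice against 3.82, 3.63 and 4.26 in the controls. Knockout 3 was the lowest array and control 3 the highest, and the other knockout values lay within the control range. The knockout mean was 3.60 ± 0.50 (SD, n = 3) and the control mean 3.90 ± 0.32 (SD, n = 3). They differed by -0.30 on the log2 scale (95% interval -1.03 to 0.42, limma, adjusted p = 0.982), and exact permutation gave p = 0.5. The value rested on knockout 3: it was -0.018 without that mouse and -0.88 when slide row was blocked (unadjusted p = 0.0300, adjusted p = 0.285).

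The 3 other probes of NM_010512 gave the same order of the extremes. A_55_P2031631 differed by -0.34, A_55_P2085974 by -0.39 and A_55_P2031636 by -0.23, none with an unadjusted p under 0.05. On each of these probes knockout 3 was the lowest array and control 3 the highest. Every Igf1 probe is printed on 2 spots per array, whose coefficient of variation lay between 0.171% and 18.2%.

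The upstream Igf1 probe A_55_P2085979 had another pattern. It read 0.64, 1.13 and 1.48 in the knockout mice against 1.66, 1.54 and 1.54 in the controls. All knockout values were below all control values, and knockout 3, lowest on the other probes, was the highest knockout array here. The log2 difference was -0.50 (SE 0.26) in a limma fit over 26109 probes (adjusted p = 0.799). Exact permutation gave p = 0.1, and 3 mice against 3 allow no smaller p. The signal of this probe relative to the brightest one, within each array, did not separate the groups. The log2 ratio was -3.31, -2.69 and -1.55 in the knockout mice against -2.15, -2.09 and -2.72 in the controls (exact permutation p = 0.9), a ratio that was set up after the values were seen.

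**Figure D2:**
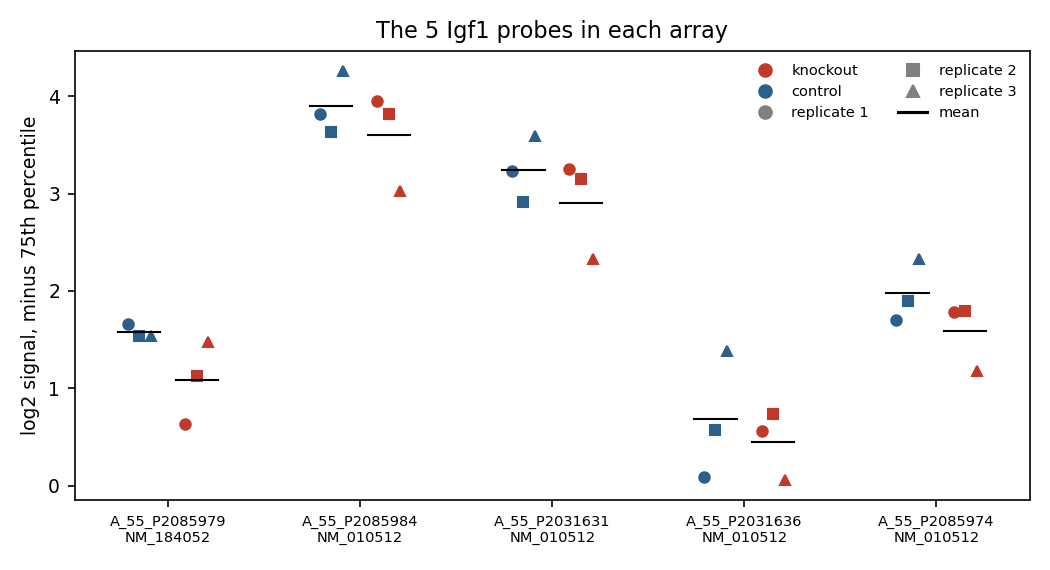
Normalized log2 signal (vertical axis) of the 5 Igf1 probes (horizontal axis, with the transcript each belongs to) in control (blue) and knockout (red) arrays, with bars at the group means. Knockout 3, the red triangle, is the lowest array on the 4 NM_010512 probes and the highest knockout array on the NM_184052 probe.

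Igf2, the fetal growth factor gene that is expressed from the paternal copy, was near the detection limit. Its processed signal was 68.2, 11.9 and 42.6 in the knockout mice against 12.6, 15.8 and 16.5 in the controls, where the dimmest probe well above background lay between 11.3 and 13.2 on each array. Knockout 1 and 3 stood above the 4 other arrays, which were close to that limit. The probe did not pass the filter, so no fold or test is given. H19, the non-coding RNA gene that shares its imprinting control region with Igf2, had a mean difference of -0.43 (SE 0.30, adjusted p = 0.925), with knockout 3 the lowest array at 2.83 and the others between 3.60 and 4.06.

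The kinase receptor gene Igf1r was at 1.70, 1.41 and 1.45 in the knockout mice against 0.83, 1.61 and 1.53 in the controls. Control 1 was the lowest array, and the other 5 lay between 1.41 and 1.70. The log2 difference was 0.19 (95% interval -0.43 to 0.82, limma, adjusted p = 0.984), and without control 1 it was -0.053.

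Igf2r, which clears IGF2 and sorts lysosomal enzymes, is printed on 10 spots per array, which gives a measure of the error between spots. The coefficient of variation over the 10 spots was between 2.88% and 5.31% on every array. Its log2 signal was 6.39, 6.27 and 5.94 in the knockout mice against 5.49, 6.05 and 6.20 in the controls. Control 1 was the lowest array and knockout 1 the highest. The groups overlapped, and the difference was 0.29 (95% interval -0.32 to 0.90, limma, adjusted p = 0.968). It was 0.076 without control 1 and 0.025 when slide row was blocked, and 0.43 without control 3. The scanner files place only 11 bases of this probe, on chromosome 17 of mm9 from 12875253 to 12875263, out of its 60.

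Igfbp6 encodes the binding protein with a preference for IGF2. It read 2.13, 2.05 and 2.15 in the knockout mice against 2.46, 2.86 and 3.13 in the controls. The knockout arrays were close together and all below control 1, the lowest control, while the controls spread more widely. The means were 2.11 ± 0.054 (SD, n = 3) and 2.82 ± 0.34 (SD, n = 3). The log2 difference was -0.71 (SE 0.24, 95% interval -1.26 to -0.16), or 61.2% of the control level. It did not pass the threshold (limma, unadjusted p = 0.0180, adjusted p = 0.557), and exact permutation gave p = 0.1. Leaving out each array in turn kept it between -0.89 and -0.55, and it was -0.67 when slide row was blocked and within slide row 2. The unadjusted p was above 0.05 without knockout 2 (0.0561), control 2 (0.0551) or control 3 (0.0821), with the slide row block (0.0788) and within slide row 2 (0.125).

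Igfbp2, the binding protein gene linked in other tissues to fetal growth and metabolism, was read by a dim probe. Its log2 signal was -0.87, -0.79 and -1.14 in the knockout mice against -0.25, -0.43 and -0.59 in the controls. All knockout values were below all control values. The difference was -0.51 (SE 0.22, 95% interval -1.01 to -0.0068), or 70.3% of the control level (limma, unadjusted p = 0.0476, adjusted p = 0.696). With normexp background correction it shrank to -0.20, and the unadjusted p was 0.187. Without any 1 of the 6 arrays its unadjusted p lay between 0.0647 and 0.155. The probe past the stop codon was not well above background on any array.

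Together, 2 of the 9 tested genes had an unadjusted p under 0.05, both lower in knockout cells, beside 7.11% of all features in either direction and 4.29% in the lower direction. Among features that were well above background on all 6 arrays, as these 9 were, 2.92% were lower and 2.399% higher at this p. The groups did not overlap in 2 of 9, both lower in knockout cells and 0 higher, beside 10.6% of all features (5.72% lower and 4.9% higher). Of the 9 differences 5 were below 0 and 4 above, where 44.2% of all features had lower and 55.8% higher means. The median of the 9 was -0.22, where the median over all features was 0.041.

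**Figure D3:**
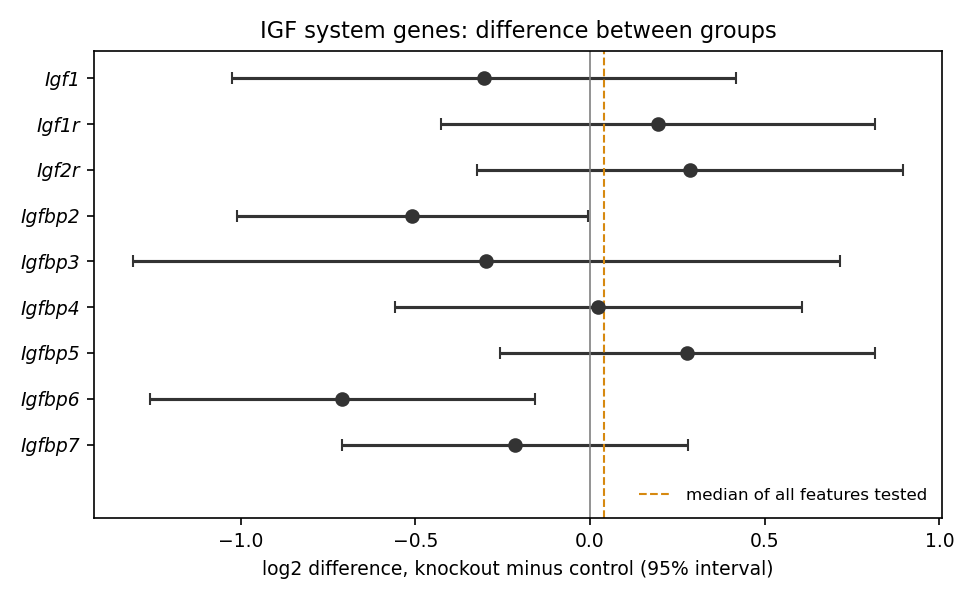
Log2 difference between knockout and control (horizontal axis, points) of the 9 tested genes with 95% intervals from the limma fit (bars), and the median of all features (dashed line, 0.041). The intervals of Igfbp6 and Igfbp2 lie below 0 and the other 7 include it.

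Igfbp5, which is abundant in muscle precursors and known to rise as myoblasts differentiate, read 7.77, 7.30 and 7.25 in the knockout mice against 7.32, 7.03 and 7.14 in the controls. Knockout 1 was the highest array, and the other 5 lay between 7.03 and 7.32. The difference was 0.28 (95% interval -0.26 to 0.81, limma, adjusted p = 0.960), and it was 0.11 without knockout 1 and 0.089 when slide row was blocked.

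Igfbp3, the main carrier of IGFs in serum, varied most between mice of 1 group among the 9 genes, with a pooled SD of 0.67 beside a median of 0.34 over all features. It read 0.72, 1.27 and 0.91 in the knockout mice against 2.05, 0.27 and 1.46 in the controls, so the control range enclosed all knockout values. The difference was -0.30 (95% interval -1.31 to 0.71, limma, adjusted p = 0.984), and without control 1 its sign turned, at 0.099. Without control 2 it was -0.79 (unadjusted p = 0.0415, adjusted p = 0.806). Control 1 also had the highest level of the endothelial marker list, at 1.06 above the mean of all arrays, beside -0.43 in control 2 and -0.90 in control 3. The part of endothelial cells in the Igfbp3 values was not tested.

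Igfbp4, a binding protein whose cleavage by the protease PAPP-A frees IGF, read 2.20, 1.94 and 1.58 in the knockout mice against 1.77, 1.71 and 2.16 in the controls. The knockout range enclosed the control range, and the difference was 0.024 (95% interval -0.56 to 0.61, limma, adjusted p = 0.994). Its sign was not stable, at -0.31 when slide row was blocked and -0.12 without knockout 1. Igfbp7, a matrix protein that binds IGFs weakly, read 2.04, 2.08 and 1.67 in the knockout mice against 2.23, 2.06 and 2.14 in the controls. Knockout 3 lay lowest, and the difference was -0.22 (95% interval -0.71 to 0.28, limma, adjusted p = 0.979). Without knockout 3 it was -0.086, and blocking on slide row gave -0.47.

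Knockout 3 was the lowest array for 4 of the 9 genes, Igf1, Igfbp2, Igfbp4 and Igfbp7, where it was the lowest for 25.1% of all features. Knockout 1 was the highest for 4 of 9, namely Igf2r, Igf1r, Igfbp4 and Igfbp5, beside 16.0% of all features. The spread within groups was below the median of all features for 7 of the 9, down to a pooled SD of 0.17 for Igfbp7, and above it for Igfbp3 and Igf1.

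Around the 10 members, 24 other genes of the axis were listed. They included the insulin receptor, the IRS adaptors, further binding proteins, the proteases and inhibitors that act on them, and the IGF2 mRNA-binding proteins. Also listed were Ghr, Gpc3, H19, Grb10, Grb14, Shc1, Gab1 and Ide. Of the 24 genes, 15 were tested, and 14 were well above background on all 6 arrays. Over the 14, 7 had higher and 7 lower means, and 3 had an unadjusted p under 0.05, all lower in knockout cells, beside 2.92% lower among the 16757 features on all arrays. The adjusted threshold was passed by 0, and the median difference was -0.18, beside 0.054 over those features. Igf2bp2, whose product binds Igf2 and other mRNAs and is known to sustain myoblast proliferation, read 3.72, 4.14 and 4.11 in the knockout mice against 4.85, 5.52 and 4.86 in the controls. The highest knockout value lay below the lowest control value. The difference was -1.08 (SE 0.27, limma, adjusted p = 0.392), and the gene's second probe gave -0.94 (SE 0.21, adjusted p = 0.333 in the fit over all probes). It lay between -1.19 and -0.86 without each array in turn and was -0.96 when slide row was blocked.

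The adaptor gene Irs1, which links IGF1R to PI3K, read 1.78, 2.01 and 1.28 in the knockout mice against 2.04, 2.47 and 2.39 in the controls. Control 1 was only just above knockout 2, and the difference was -0.61 (SE 0.26, limma, adjusted p = 0.697). Its second probe gave -0.58, and blocking on slide row gave -1.02 (adjusted p = 0.268). Gab1, a docking protein gene of several receptor tyrosine kinases, was at 3.46, 3.47 and 3.49 in the knockout mice against 3.76, 4.32 and 4.01 in the controls. The knockout arrays were close together and below every control, with a difference of -0.56 (SE 0.22, adjusted p = 0.657). Pappa2, a protease gene that cleaves binding proteins, was the other tested gene of the list. It was near the detection limit, well above background in 3 of 3 control and 2 of 3 knockout samples, so its difference is not counted. The liver binding protein gene Igfbp1 and the fetal genes Igf2bp1 and Igf2bp3 were not well above background on any array.

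Downstream lie the genes of the PI3K, AKT and mTOR chain. Of 29 listed genes 24 were tested, and 0 had an unadjusted p under 0.05 in either direction, beside 7.11% of all features. Of the 24, 17 had lower and 7 higher means, beside 44.2% lower and 55.8% higher over all features, and their median was -0.14 beside 0.041. The kinase genes Gsk3b (-0.45, SE 0.22) and Mtor (-0.60, SE 0.31) came closest and did not pass (limma, adjusted p = 0.780 and 0.813). Of the other Gsk3b probes, A_66_P104190 gave -0.51 and A_51_P514412 gave 0.82. Mtor read -0.55, -0.95 and -0.53 in the knockout mice against -0.68, 0.14 and 0.31 in the controls, so the groups overlapped through control 1.

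Among 17 tested targets of the FoxO factors, which AKT keeps out of the nucleus, 1 gene was higher at an unadjusted p under 0.05 and 0 were lower, beside 2.82% and 4.29% of all features. The median of 0.044 was close to the 0.041 of all features. That gene, Gabarapl1, an autophagy gene of the Atg8 family, read 4.58, 4.58 and 4.33 in the knockout mice against 3.66, 4.14 and 3.71 in the controls. All knockout values were above all controls, and the difference was 0.66 (SE 0.23, limma, adjusted p = 0.585).

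Igf2, H19, Igf2r, Grb10 and 12 other imprinted genes formed the last list, of which 13 were tested and 12 were well above background on all 6 arrays. Over the 12, 0 were higher and 2 lower at an unadjusted p under 0.05, beside 2.399% and 2.92% of the features on all arrays, and the median was -0.19. Dlk1, a transmembrane relative of the Notch ligands, read 0.19, 0.17 and -0.026 in the knockout mice against 0.43, 0.95 and 0.57 in the controls. The difference was -0.54 (SE 0.23, limma, adjusted p = 0.680). Its second probe gave -0.33 (SE 0.34, adjusted p = 0.962 in the limma fit over all probes). Mest differed by -0.64 (SE 0.26, adjusted p = 0.671), but 2 other probes of it gave -0.086 and 0.083. Zim1, a zinc finger gene and the other tested member of the list, was well above background in 3 of 3 knockout and 2 of 3 control samples, so its difference is not counted.

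**Figure D4:**
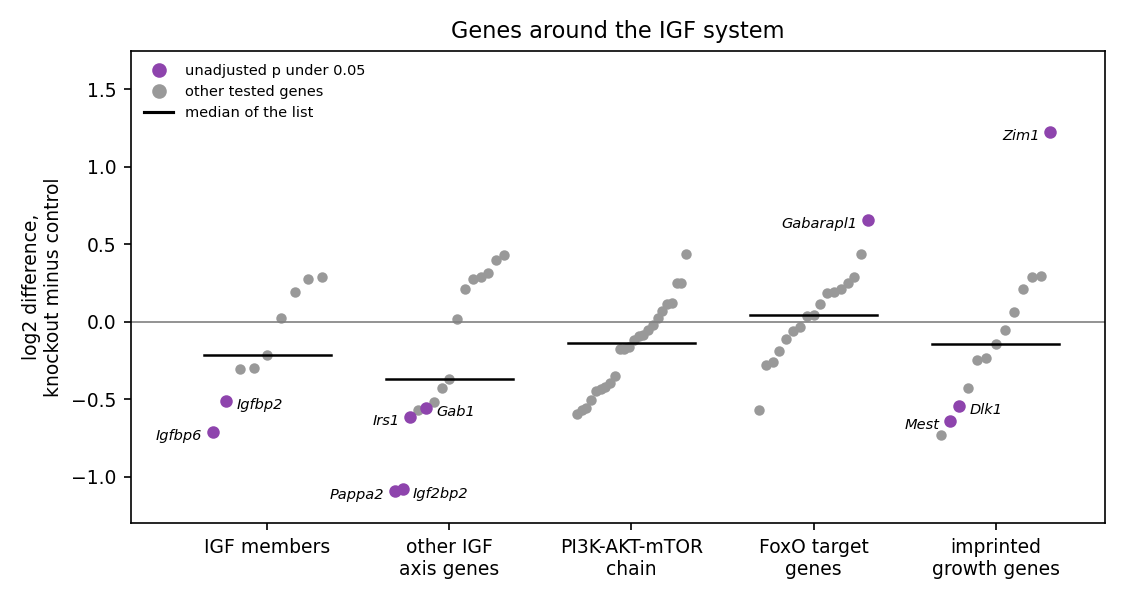
Log2 difference between knockout and control (vertical axis) of each tested gene in the 5 lists (horizontal axis), ordered by value within a list, with a bar at the list's median. Genes with an unadjusted p under 0.05 are purple and named, and none passed the adjusted threshold. Pappa2, Zim1, Mlst8 and Sesn1 were not well above background on all arrays. The bars include them and stand at -0.37 for the other IGF axis genes and -0.14 for the imprinted growth genes. The bar of the PI3K, AKT and mTOR chain also stands at -0.14.

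Genes with a pattern over the 6 arrays most like a member's were taken from 16757 features well above background on every array. This is a description over arrays that share their scaling and their outlying sample. For Igfbp6 these were B930025B16Rik and Sp7, each with a Pearson r of 0.997 and 0.996 in that order. For Igf1 they were Ddrgk1 (r of 0.996) and Pigq (0.990), and for Igf2r Runx1 (0.994) and Anp32b (0.981). For Igf1r the first was Adgre5 (0.993), and for Igfbp5 they were Zfp511 (0.992) and Lbp (0.991). For Igfbp2 they were Acly (0.994) and Aff4 (0.991).

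Igf1 and several binding protein genes are also expressed by other cells of muscle, so marker lists were read on the same arrays. Of 16 satellite cell markers, 11 to 16 were well above background per array. Pax7, the defining transcription factor gene, was so on 5 of 6 arrays, and Myf5 on 3, all of them controls. Markers of other cells were also present: all 8 tenocyte markers and all 10 mural cell markers were well above background on every array, as were 13 to 14 of 14 markers of fibro-adipogenic progenitors, 11 to 13 of 13 endothelial markers and 5 to 12 of 13 macrophage markers. Schwann cell markers (7 to 8 of 8), neutrophil markers (3 to 9 of 10) and muscle fibre markers (5 to 10 of 13) were also read. Among the fibre genes, Acta1, Tnnt3, Pvalb, Ryr1 and Atp2a1 were well above background on all 6 arrays, while Ckm, Myh2 and Actn3 were so on none, nor was the macrophage marker Cd163. In bulk RNA, fewer cells of a type and less RNA per cell cannot be told apart.

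The mean of the tenocyte markers was lower in each knockout sample than in any control, as was Igfbp6. As a log2 level against the 6-array mean, it was -0.55, -0.39 and -0.19 in the knockout mice. In the controls it was -0.12, 0.44 and 0.80, so that control 1 was the lowest control for it and for Igfbp6. The mean of the other IGF axis genes was at up to 0.0063 in knockout and from 0.051 in control arrays, with Pappa2 included. That of the PI3K, AKT and mTOR chain was at up to -0.0062 and from 0.017, with Mlst8 included. Both genes passed the filter only through the controls, so no separation of the groups is read from these means. All 8 tenocyte markers had lower means, beside 44.2% of all features, with a median of -0.73. At an unadjusted p under 0.05, 3 of 8 were lower, beside 4.29% of all features and 2.92% of the features on all arrays. The groups did not overlap for Scx, Tnmd and Thbs4, beside 5.72% of all features, and overlapped for the other 5. Scx, the tendon transcription factor gene, differed by -1.09 (SE 0.24, limma, adjusted p = 0.353). Markers of fibro-adipogenic progenitors had levels of 0.052, 0.024 and -0.36 in the knockout mice against 0.19, -0.11 and 0.20 in the controls. Like Igf1, this list was lowest in knockout 3. Its highest arrays were control 1 and control 3, which lay close together. The levels include Dpep1, which passed the filter only through the controls. Satellite cell markers had levels of -0.10, -0.18 and -0.44 in the knockout mice against -0.15, 0.41 and 0.46 in the controls. These levels include Myf5, Musk, Itga7 and Pax7, which passed the filter only through the controls. Over the 11 satellite cell markers well above background on all 6 arrays, 5 had higher and 6 lower means, with a median difference of -0.50. Of these 11, 3 were lower and 0 higher at an unadjusted p under 0.05, beside 2.92% and 2.399% of the features on all arrays. Of the red blood cell genes, 4 of 10 were tested, and their mean level ranged from 0.35 to 1.16 in knockout and from -1.57 to 0.11 in control arrays. That range includes Hbb-bt, which was well above background on 4 of 6 arrays. Hba-a1 alone read 3.05, 2.69 and 2.06 in the knockout mice against 1.6, 0.58 and -0.0069 in the controls, while Slc4a1 differed by -0.0078. Klf1 and Ahsp were not well above background on any array. The part of any of these cells in the Igfbp6, Igfbp2 and Igf1 values was not tested.

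**Figure D5:**
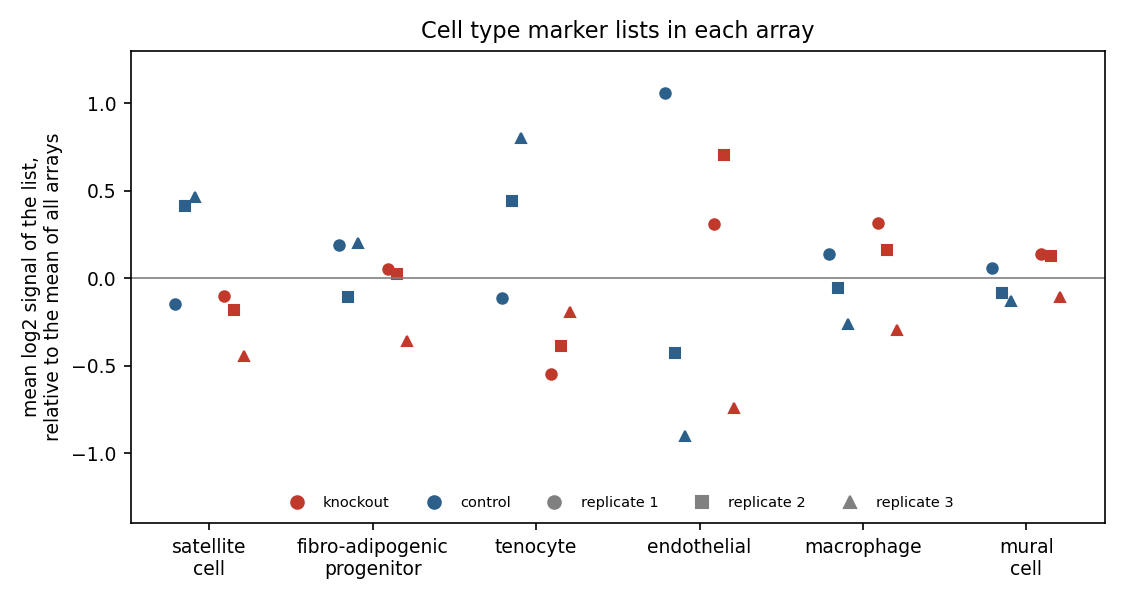
Mean log2 signal of 6 cell type marker lists (horizontal axis) in each control (blue) and knockout (red) array, relative to the mean of all arrays (vertical axis). The tenocyte list lies between -0.55 and -0.19 in knockout and between -0.12 and 0.80 in control arrays. Of the 6 lists drawn, the endothelial list spans the widest range, with control 1 highest at 1.06.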

How the data were processed

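RNA of sorted satellite cells from 3 knockout and 3 control mice was amplified, labelled with Cy3 and hybridized to 1 Agilent array each, per the labels' protocols. The deposited scanner files hold linear intensity after background subtraction and spatial detrending by Feature Extraction 10.7.1.1, per the file headers (9.5.1.1 in the submitters' processing notes). The deposited value table holds linear intensity with the same quantiles in every column (median 17.7).

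Processed signals were put on a log2 scale and each array's 75th percentile was subtracted. Spots of control type or with an outlier flag were left out, spots of a probe were averaged, and the brightest tested probe stood for a gene. Names were updated through accessions of the GRCm38.p6 gene table (27235 of 55681 probes matched). Groups were compared with limma 3.58.1 (lmFit, eBayes, 2-sided) in R 4.3.3, with Benjamini-Hochberg adjustment over 19298 features and a threshold of 0.05. Single values were also compared by 2-sided exact permutation, which cannot go below 0.1. The number of arrays limits the precision (median standard error 0.27). Nothing in the labels ties a mouse to a litter or sorting day. Named list genes were the up to 4 with the smallest unadjusted p under 0.05, or otherwise the 2 with the smallest p, besides all members, Psmc4 and defining markers. For likeness, the 2 highest Pearson r per member were taken. The members and lists were chosen with earlier results of these data known. Alternatives covered background, scaling, filters, probe choice, moderation, batch and each array left out. The scripts were tested on simulated data.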

Additional observations from a re-analysis of the deposited data

How the results depend on the processing

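The differences of named genes and both counts below were recomputed under 21 alternatives (20 for Pappa2 and Zim1, which do not pass the filter on all arrays; marker and pathway lists were not recomputed), and with every tested probe on its own as an alternative chosen after seeing the data. Over all of them, 185 of 193 values of the member genes kept their direction, and 0 passed the adjusted threshold. Of the 8 that reversed, 6 were of Igfbp4, reported at 0.024. Igfbp4 was -0.019 with normexp background correction, -0.31 with slide row as a block, -0.31 within slide row 2, -0.12 without knockout 1, -0.032 without control 1 and -0.061 without control 2. Igf1r was -0.053 and Igfbp3 0.099 without control 1. Without each array in turn, Igfbp4 ranged from -0.12 to 0.19, Igf1r from -0.053 to 0.34 and Igfbp3 from -0.79 to 0.099. Of the other named genes, 234 of 236 values kept their direction, and other probes of Gsk3b (0.82) and Mest (0.083) had the opposite sign. Sizes moved more: Irs1, reported at -0.61, was -1.02 with slide row as a block. Mtor, reported at -0.60, was -0.33 with normexp correction. The uncounted differences of Pappa2 and Zim1 also shrank with normexp correction. The cause was not tested.

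The count of members with an unadjusted p under 0.05, 2 in the reported fit, was 1 with normexp correction, median scaling, no filter on dim probes, trended robust moderation, array weights and the replicate block, and 0 to 1 without each array in turn. A count of 2 was not always the same genes: with slide row as a block it was Igf1 and Igfbp2, and within slide row 2 it was Igf2, which then entered through knockout 3 alone, and Igfbp2. Without knockout 2 the 1 gene was Igf2, which then passed the filter only through knockout 1 and 3, where its signal was high. No test of Igf2 is read from this. Without control 2 the 1 gene was Igfbp3. The count of features past the adjusted threshold, 0 in the reported fit, was 1 with quantile normalization and in the deposited table (Olfr591 in both), 2 with median scaling (Ereg and Olfr591), 3 with trended robust moderation, 9 with array weights and 41 within slide row 2, and 0 without each array in turn. None of these was a member. Knockout and control arrays of the same number had correlations of 0.072, -0.016 and 0.091 in their deviations from the group means. Arrays of different numbers had correlations between -0.090 and 0.034. With 3 arrays per group these values cannot decide whether the numbers pair the mice. With the replicate block, 0 features passed and Igfbp6 stayed at -0.71 (adjusted p = 0.596). For Igf2 and the second probes of Igfbp2 and Igfbp3 the signal over background limits what can be read.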
